A study of Mus musculus with 12 samples.

Results

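A set of 10 genes of autophagy and mitophagy was followed in mouse heart across LPS+XJDHT, LPS and Control animals. The rule that chose them names the genes and uses no measured value, though earlier results of these data were known when it was set. The genes are Map1lc3a, Map1lc3b and Gabarapl1 of the ATG8 family, Ulk1 and Becn1 of the initiation step, the cargo receptor Sqstm1, the mitophagy receptors Bnip3, Bnip3l and Fundc1, and the mitochondrial kinase gene Pink1. All 10 were listed for every library and all 10 passed the filter on low values, out of 12866 genes listed and 11509 tested. Each group held 4 wild-type C57BL/6 mice. LPS+XJDHT mice received lipopolysaccharide at 10 mg/kg together with XJDHT, Xijiao Dihuang decoction, at 50 mg/kg per day. LPS mice received the same dose of lipopolysaccharide, a bacterial outer-membrane component that activates innate immunity, with saline in place of the decoction. Control mice received saline in both places. Every treatment is labelled as lasting 3 days, and the labels used here give no age, sex or batch. Expression is in FPKM, fragments per kilobase of transcript scaled to the library total, summed per gene over its annotated transcripts.

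Autophagy encloses cytoplasm in a growing membrane, the autophagosome, and delivers it to the lysosome for breakdown. The ULK kinase complex and the beclin-containing lipid kinase complex start the membrane, ATG8 proteins (the LC3 and GABARAP families) are attached to its lipids, and receptors such as p62, the product of Sqstm1, tie cargo to ATG8. Mitophagy is the same process applied to mitochondria, marked either by PINK1 and the ubiquitin ligase parkin or by receptors of the outer membrane such as BNIP3, NIX (from Bnip3l) and FUNDC1, and it is a main route of mitochondrial quality control in the heart.

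Promoter windows of 300 bases around the RefSeq start were matched for 7 of the 10 genes, all but Map1lc3a, Becn1 and Bnip3l. The stretches just upstream of 3 genes are shown because transcript levels of Map1lc3b and Sqstm1 changed after LPS while those of Bnip3, a textbook hypoxia target, did not pass the test. The sequences are RefSeq's for GRCm38.p6, printed on the gene's strand from 5′ to 3′ and kept outside annotated exons, at chr8:121590211-121590360 on the plus strand for Map1lc3b, chr11:50210828-50210889 on the minus strand for Sqstm1 and chr7:138909520-138909669 on the minus strand for Bnip3. Capitals mark matches to the letters CACGTG or GGGCGG on either strand, of which the Map1lc3b stretch holds none.
Map1lc3b: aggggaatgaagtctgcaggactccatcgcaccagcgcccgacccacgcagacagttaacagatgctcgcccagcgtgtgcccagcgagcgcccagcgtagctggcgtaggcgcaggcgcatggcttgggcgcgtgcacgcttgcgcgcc
Sqstm1: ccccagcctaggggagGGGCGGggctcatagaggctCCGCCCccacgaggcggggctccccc
Bnip3: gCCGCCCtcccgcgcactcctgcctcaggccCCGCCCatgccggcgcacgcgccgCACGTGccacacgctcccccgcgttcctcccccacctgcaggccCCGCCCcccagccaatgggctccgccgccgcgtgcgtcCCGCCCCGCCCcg
CACGTG, the core of the element that TFEB-family factors read, stood in the window of Bnip3 and in 1 of the 7 windows, against 7.15% of all 32851 windows. ACGTG, a form of the hypoxia response element core, overlapped that same CACGTG in Bnip3 and stood in no other of the 7 windows. It was found in 19.6% of all windows. The other form, GCGTG, was not searched, and it can be read in the printed Map1lc3b and Bnip3 stretches. TGACNNNGC, the core of the antioxidant response element, was found in the Map1lc3b window inside the transcribed part, in 1 of the 7 windows and in 12.4% of all. GTAAACA, the FoxO-type element, was in 0 of the 7 windows and in 3.65% of all. GGGCGG, the GC box, was in 6 of the 7 windows and in 35.7% of all. These are matches of letters on both strands and describe the windows only.

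Depth recovered from the values was 73.8 to 77.8 M fragments per library, which put between 906 and 55711 fragments per library behind each of the 10 genes. The labelled tissue was met by its markers, since the summed level of the 12 cardiomyocyte markers was the highest of all marker lists. All 12 were listed and 11 passed the filter on low values. LPS+XJDHT library 2 had a summed level of 0.205 FPKM over 4 Y-linked genes, against 20.4 to 61.9 FPKM in the other libraries. In the hearts after LPS the median of all tested genes was 0.16 higher than in Control on the log2 scale. FPKM is scaled to the library total, so fold changes are relative to that total and the median gene need not sit at 0. Log2 fold changes below come from limma on log2(FPKM + 1), with Benjamini-Hochberg adjusted p over all 11509 genes and a threshold of 0.05, and positions are in GRCm38.

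The comparison of LPS with Control asks how the autophagy genes of the heart stand after endotoxin. Map1lc3b, Sqstm1, Bnip3l and Becn1 rose, Fundc1 fell, and Map1lc3a, Gabarapl1, Ulk1, Bnip3 and Pink1 did not pass. That is 4 of 10 genes up, where 26.6% of all tested genes rose, and 1 of 10 down, where 12% fell. The median of the 10 log2 fold changes was 0.08. In 5 of the 10 genes every LPS library lay apart from every Control library, which was so for 37.4% of all genes. As a count, the 10 genes were thus close to the background, and the size of change differed widely between them. These are whole-heart values, in which fewer cells of a type and less RNA per cell cannot be told apart.

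**Figure D1:**
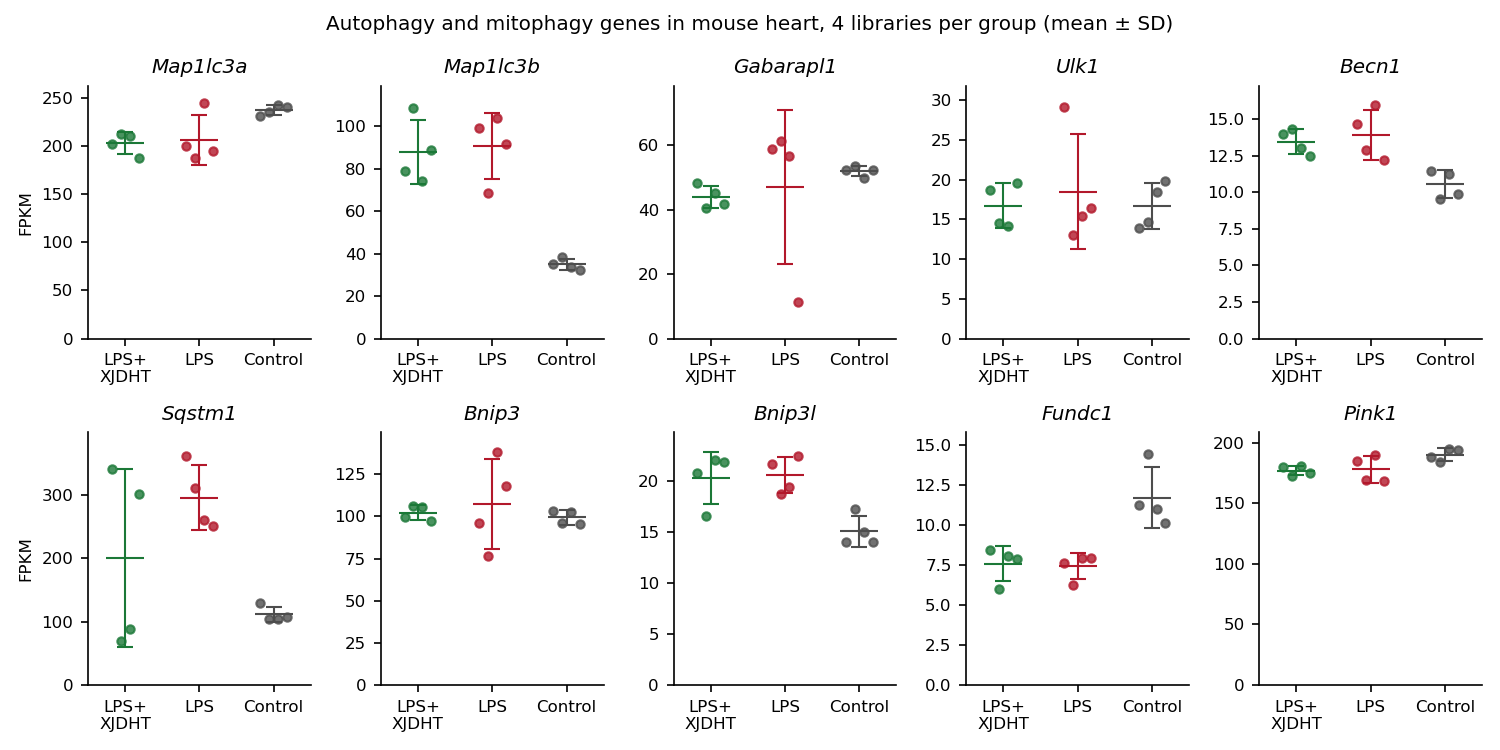
FPKM (vertical axes, starting at 0) of the 10 genes in each of 12 libraries; points are libraries, lines and bars are the mean ± SD of 4 libraries per group. Map1lc3b sits between 68.6 and 108 FPKM in the LPS+XJDHT and LPS libraries and between 32.4 and 38.5 FPKM in Control, while Sqstm1 spreads from 69.1 to 341 FPKM within LPS+XJDHT.

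Of Map1lc3a, Map1lc3b and Gabarapl1, Map1lc3b, which encodes LC3B, passed the test. It lies on chromosome 8 from 121590361 to 121598760. Map1lc3b stood at 79.1, 108, 74.5 and 89.1 FPKM in LPS+XJDHT hearts, at 99.5, 68.6, 104 and 91.5 FPKM in LPS hearts and at 35.2, 38.5, 33.7 and 32.4 FPKM in Control hearts. All 8 libraries of the LPS-treated mice were higher than all 4 Control libraries, and the treated groups overlapped each other. The mean was 90.8 ± 15.6 FPKM in LPS hearts against 34.9 ± 2.59 FPKM in Control hearts (SD, n = 4 each), a log2 fold change of 1.34 ± 0.14 (SE, limma adjusted p = 3.7e-05). The call held in all 22 alternative settings, with log2 fold changes from 1.14 to 1.47.

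Map1lc3a, which encodes LC3A and lies on chromosome 2 from 155276297 to 155278073, was the most abundant of the 10 genes by its mean over all libraries, 216 FPKM. Of its FPKM 27.8% in LPS+XJDHT, 31.3% in LPS and 31.8% in Control came from Map1lc3a-203. That transcript is annotated as a processed transcript and not as protein coding. The gene stood at 202, 212, 211 and 188 FPKM in LPS+XJDHT hearts, at 200.1, 187, 245 and 195 FPKM in LPS hearts and at 231, 236, 243 and 240.3 FPKM in Control hearts. Of the LPS libraries 3 were lower than all Control libraries, and LPS library 3 was higher than all of them. In LPS library 3 Map1lc3a-203 stood at 93.2 FPKM, against 66.8 to 82.7 FPKM in Control. The coding Map1lc3a-201 stood at 151 FPKM there, within the Control range of 149 to 173 FPKM. The log2 fold change of the gene after LPS was -0.21, with a 95% interval of -0.39 to -0.03 and a limma adjusted p of 0.068. It passed without LPS library 3 (-0.29, limma adjusted p = 0.0043), with sample quality weights (0.046) and with median-ratio scaling, which levels the median gene across libraries (-0.41, 0.0031).

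Gabarapl1, on chromosome 6 from 129533160 to 129542346, encodes a GABARAP-family protein and is a FoxO target in mouse skeletal muscle. Its values were 48.2, 40.5, 45.1 and 41.7 FPKM in LPS+XJDHT hearts, 58.8, 61.4, 56.7 and 11.5 FPKM in LPS hearts and 52.2, 53.4, 49.7 and 52.2 FPKM in Control hearts. In LPS library 4 the gene was at 11.5 FPKM, where the other 3 LPS libraries were all higher than Control. The log2 fold change after LPS was -0.38 with a 95% interval of -1.29 to 0.52 (limma adjusted p = 0.50), and without LPS library 4 it was 0.18 (limma adjusted p = 0.11), so 1 library decided its sign.

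Of Ulk1 and Becn1, which act at the start of autophagosome formation, Becn1 passed the test. Becn1, which encodes beclin 1 of the lipid kinase complex and lies on chromosome 11 from 101285952 to 101302286, stood at 14.0, 14.3, 13.1 and 12.5 FPKM in LPS+XJDHT hearts, at 14.7, 12.9, 16.0 and 12.2 FPKM in LPS hearts and at 11.5, 9.55, 11.3 and 9.92 FPKM in Control hearts. Every library of both treated groups was higher than every Control library. The rise after LPS was 0.37 ± 0.10 on the log2 scale (SE, limma adjusted p = 0.016). It was lost with median-ratio scaling (0.18, limma adjusted p = 0.18) and when protein-coding transcripts alone were summed (0.51, limma adjusted p = 0.33).

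Ulk1 encodes the kinase that starts the process and lies on chromosome 5 from 110784488 to 110810097. It stood at 18.8, 14.5, 14.1 and 19.6 FPKM in LPS+XJDHT hearts, at 29.1, 13.1, 15.4 and 16.4 FPKM in LPS hearts and at 13.9, 14.7, 18.5 and 19.8 FPKM in Control hearts. The 3 groups overlapped, with LPS library 1 above all others. The log2 fold change after LPS was 0.09 with a 95% interval of -0.39 to 0.57 (limma adjusted p = 0.78), and it was -0.14 without LPS library 1 and -0.10 with median-ratio scaling.

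Sqstm1, on chromosome 11 from 50199366 to 50210827, encodes p62, which binds ubiquitinated cargo and LC3 and is also a target of the oxidant-response factor NRF2. It stood at 341, 69.1, 88.8 and 301 FPKM in LPS+XJDHT hearts, at 360.1, 310.0, 259.8 and 251 FPKM in LPS hearts and at 129, 105, 103 and 107 FPKM in Control hearts. Every LPS library was higher than every Control library, whereas LPS+XJDHT libraries 2 and 3 were lower than all Control libraries and libraries 1 and 4 were among the highest of all 12. The mean was 295 ± 50.5 FPKM in LPS hearts against 111 ± 12.3 FPKM in Control hearts (SD, n = 4 each), a log2 fold change of 1.39 ± 0.44 (SE, limma adjusted p = 0.026). The call was lost without LPS library 1 or 2 or Control library 2, 3 or 4 (limma adjusted p up to 0.066) and with median-ratio scaling (1.19, limma adjusted p = 0.052), always with the direction kept. The spread that set this error is shared by the 3 groups in the fit and holds the 4 LPS+XJDHT values, and with LPS and Control alone in the fit the limma adjusted p was 0.00018.

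Of the mitophagy receptors Bnip3l rose after LPS, Fundc1 fell and Bnip3 did not pass. Bnip3l, which encodes NIX and lies on chromosome 14 from 66985239 to 67008877, stood at 20.8, 16.5, 22.0 and 21.8 FPKM in LPS+XJDHT hearts, at 21.7, 18.8, 19.4 and 22.5 FPKM in LPS hearts and at 14.0, 17.2, 14.998 and 14.1 FPKM in Control hearts. All LPS libraries were higher than all Control libraries, while LPS+XJDHT library 2 lay within the Control range. Bnip3l rose by 0.43 ± 0.11 on the log2 scale (SE, limma adjusted p = 0.011), a call lost only with median-ratio scaling among the 22 settings (0.24, limma adjusted p = 0.12).

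Fundc1, on the X chromosome from 17556564 to 17572325, encodes the receptor of hypoxia-linked mitophagy. It stood at 8.41, 5.99, 8.07 and 7.86 FPKM in LPS+XJDHT hearts, at 7.59, 6.24, 7.91 and 7.94 FPKM in LPS hearts and at 11.2, 14.5, 10.998 and 10.1 FPKM in Control hearts. All 8 libraries of treated mice were lower than all 4 Control libraries. Fundc1 fell by 0.59 on the log2 scale after LPS (SE 0.14, limma adjusted p = 0.0051), and this call held in all 22 settings. Its lowest value was in LPS+XJDHT library 2, the library with almost no RNA of Y-linked genes, and the fall of both treated groups held without that library.

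Bnip3, on chromosome 7 from 138890836 to 138909519, encodes a receptor that hypoxia induces in many cells. Its values were 99.8, 106, 106 and 97.2 FPKM in LPS+XJDHT hearts, 96.0, 76.6, 138 and 118 FPKM in LPS hearts and 103, 95.9, 103 and 95.5 FPKM in Control hearts. The LPS libraries lay on both sides of the Control range. The log2 fold change after LPS was 0.08 with a 95% interval of -0.24 to 0.39 (limma adjusted p = 0.71), and it turned to -0.12 with median-ratio scaling. The ratio of Bnip3 to Bnip3l in FPKM was 5.12 ± 0.880 in LPS+XJDHT, 5.23 ± 1.36 in LPS and 6.65 ± 0.768 in Control (SD, n = 4 each), a description with overlapping groups.

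Pink1, on chromosome 4 from 138313409 to 138326307, encodes the kinase that accumulates on damaged mitochondria. It stood at 179.8, 173, 181 and 175 FPKM in LPS+XJDHT hearts, at 185, 169, 190.1 and 168 FPKM in LPS hearts and at 188, 184, 195 and 194 FPKM in Control hearts. The LPS and Control libraries overlapped, and the log2 fold change was -0.10 with a 95% interval of -0.23 to 0.04 (limma adjusted p = 0.23). With median-ratio scaling Pink1 fell by 0.29 (limma adjusted p = 0.0026), the widest gap between settings for this gene. Under that scaling 1 of the 10 genes rose, Map1lc3b, and 3 fell, Map1lc3a, Pink1 and Fundc1, so the counts of the 10 genes rest on whether the median gene or the library total is taken as level.

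**Figure D2:**
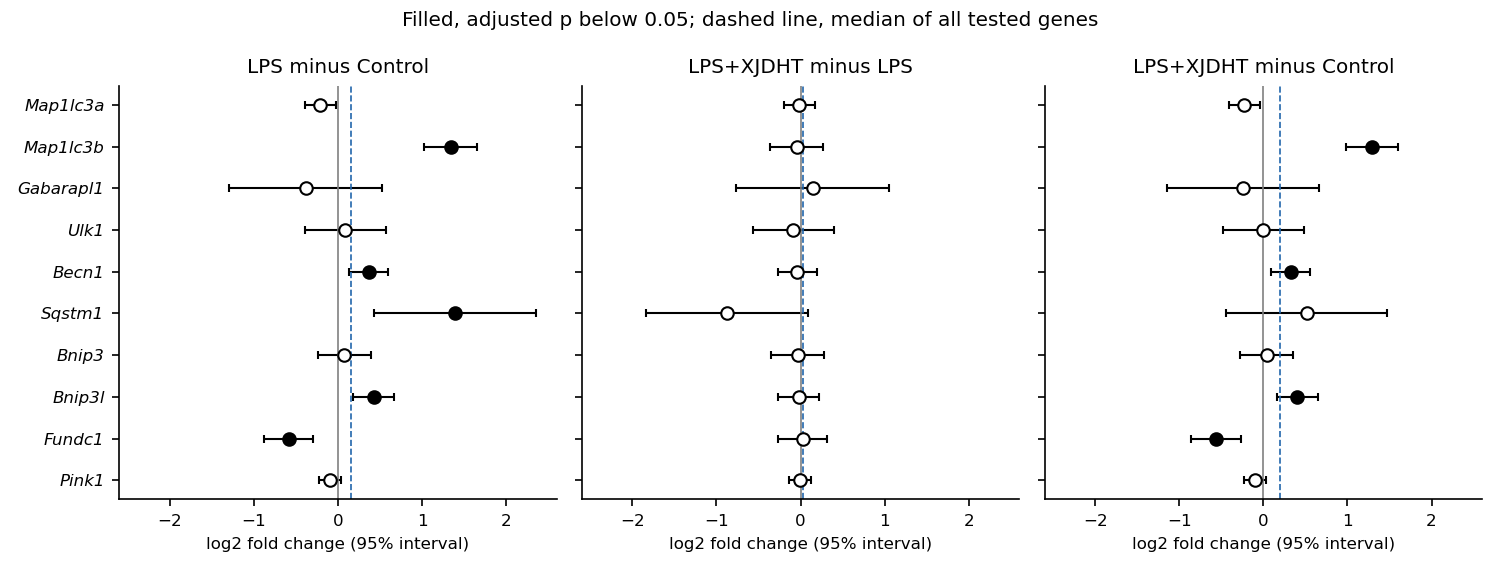
Log2 fold change of each gene with its 95% interval from limma in the 3 comparisons; filled points passed the adjusted p threshold, the grey line is 0 and the dashed line is the median of all tested genes. Map1lc3b, Becn1 and Bnip3l pass upward and Fundc1 downward in both comparisons with Control, and no gene passes between LPS+XJDHT and LPS.

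The effect of the decoction is addressed by setting LPS+XJDHT against LPS. The LPS+XJDHT files list a different set of transcripts from the Control and LPS files. A difference in how the files were made therefore cannot be told apart from the decoction. This holds for genes and transcripts alike, and against Control too. None of the 10 passed: by limma 0 rose and 0 fell, 0 were under an unadjusted p of 0.05, and limma-voom on recovered fragments called 0 as well. The background was 0% of genes rising and 0.113% falling, and groups lay apart in 0 of the 10 genes, against 2.82% of all. The median of the 10 log2 fold changes was -0.03, and that of all genes was 0.03. Intervals were narrow for Pink1, from -0.14 to 0.12, and for Map1lc3a, from -0.20 to 0.17. For Becn1 the interval was -0.27 to 0.19, for Bnip3l -0.27 to 0.22, for Fundc1 -0.27 to 0.32, for Bnip3 -0.35 to 0.28 and for Map1lc3b -0.36 to 0.27. They were wide for Ulk1, from -0.57 to 0.39, and for Gabarapl1, from -0.76 to 1.05, where leaving out LPS library 4 moved the value from 0.15 to -0.42.

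Sqstm1 had the largest difference of the 10 between these groups and the largest error. Its mean was 199.9 ± 141 FPKM in LPS+XJDHT against 295 ± 50.5 FPKM in LPS (SD, n = 4 each). The log2 fold change was -0.88 with a 95% interval of -1.84 to 0.08, at an unadjusted p of 0.070 and a limma adjusted p of 0.99. LPS+XJDHT libraries 2 and 3, at 69.1 and 88.8 FPKM, lay below all LPS libraries, and libraries 1 and 4, at 341 and 301 FPKM, lay among them. Across the 22 settings the value ran from -1.24 to -0.48 and never passed.

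The comparison of LPS+XJDHT with Control uses the same Control libraries, and its values stand beside those of LPS for that reason only. In it 3 of the 10 genes rose, Map1lc3b, Bnip3l and Becn1, and 1 fell, Fundc1, where 28.5% of all genes rose and 10.7% fell. Groups lay apart in 6 of the 10, against 42.1% of all. Map1lc3b was higher by 1.29 ± 0.14 on the log2 scale (SE, limma adjusted p = 5.0e-05), against 1.34 for LPS. Bnip3l was higher by 0.40 (limma adjusted p = 0.014) and Becn1 by 0.33 (0.028), the Becn1 call being lost in 6 of the 22 settings and the Bnip3l call with median-ratio scaling (0.17, limma adjusted p = 0.28). Fundc1 was lower, at -0.56 (limma adjusted p = 0.0065). Sqstm1 did not pass, at 0.52 with a 95% interval of -0.44 to 1.48 (limma adjusted p = 0.38). Map1lc3a was just short of the threshold at -0.23 (limma adjusted p = 0.051), with its groups apart, and passed in 8 of the 22 settings. Its coding transcript Map1lc3a-201 had overlapping groups, at -0.14 (limma adjusted p = 0.24). Map1lc3a-203, a processed transcript, had its groups apart, at -0.42 (limma adjusted p = 0.12).

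Gabarapl1 and Pink1 were lower in every LPS+XJDHT library than in every Control library without passing. For Gabarapl1 the log2 fold change was -0.24 (limma adjusted p = 0.69). It passed when the spread was taken from the compared groups alone (0.028) or without LPS library 4 (0.029), which enters the shared error. For Pink1 the log2 fold change was -0.10 (limma adjusted p = 0.20), and -0.35 with median-ratio scaling (0.00097).

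At the level of single transcripts, 25 annotated transcripts made up the 10 genes, 15 of them protein coding and 9 with a retained intron. Of the 22 that passed the filter, 3 rose and 1 fell in LPS against Control, where 17.3% and 8.26% of all tested transcripts did. The rises were of Map1lc3b-201, Map1lc3b-202 and Bnip3l-201, and the fall was of Fundc1-201. Map1lc3b-202 is a retained-intron transcript that held 5.49% of the gene's FPKM in LPS. Between LPS+XJDHT and LPS 0 rose and 0 fell by limma, and 1, Bnip3l-202, was under an unadjusted p of 0.05. The background there was 0.0107% up and 0.0858% down. In LPS+XJDHT against Control 4 rose, Map1lc3b-201, Bnip3l-201, Sqstm1-207 and Becn1-207, and 1 fell, Fundc1-201, against 18.6% and 7.35% of all. Sqstm1-207 and Becn1-207 are retained-intron transcripts at low level. Their means were 1.97 and 1.45 FPKM in LPS+XJDHT and 0.784 and 0.365 FPKM in Control. The coding transcripts of Sqstm1 and Becn1 did not pass in that comparison.

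The main coding transcript carried most of Map1lc3b. Map1lc3b-201 held 87.2% to 96.4% of the gene's FPKM in every library and rose by 1.36 ± 0.17 on the log2 scale after LPS (SE, limma adjusted p = 0.00021). Bnip3l was shared by 2 coding transcripts of near-equal length. Bnip3l-201 held 73.5% of the gene's FPKM in LPS+XJDHT, 62.9% in LPS and 58.6% in Control. Bnip3l-202 stood at 5.35, 4.48, 6.12 and 5.54 FPKM in LPS+XJDHT hearts and at 6.27, 7.32, 8.43 and 8.31 FPKM in LPS hearts, with no overlap. Its log2 fold change was -0.43 ± 0.15 (SE), and its limma adjusted p over all transcripts was 0.98.

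The split values of Sqstm1 in LPS+XJDHT came with 1 transcript. Sqstm1-202 stood at 316, 14.5, 43.5 and 245 FPKM in LPS+XJDHT hearts, at 336, 225, 245 and 245 FPKM in LPS hearts and at 123, 80.8, 86.6 and 99.8 FPKM in Control hearts. Sqstm1-201, the other coding transcript, stood at 20.5, 52.2, 41.6 and 52.6 FPKM in LPS+XJDHT hearts, at 19.4, 81.3, 12.1 and 3.13 FPKM in LPS hearts and at 5.28, 21.1, 15.1 and 5.48 FPKM in Control hearts. The share of Sqstm1-202 in the gene ran from 20.9% to 97.8% across the 12 libraries. Neither transcript passed in any comparison. How the quantifier divided reads between overlapping transcripts is not given in the sources used here.

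Becn1 was divided among 4 summed transcripts of which 1, Becn1-205, is coding. Becn1-205 held between 14.3% and 75.3% of the gene's FPKM, and its log2 fold change after LPS was 0.51 with a 95% interval of -0.35 to 1.37 (limma adjusted p = 0.38). The rise of the summed gene was therefore not seen as a call in its coding transcript. Pink1 and Bnip3 were nearly all from a single coding transcript, at 99.5% to 99.8% for Pink1-201 and 97.0% to 99.2% for Bnip3-201, and Gabarapl1 and Fundc1 were summed from 1 transcript each.

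**Figure D3:**
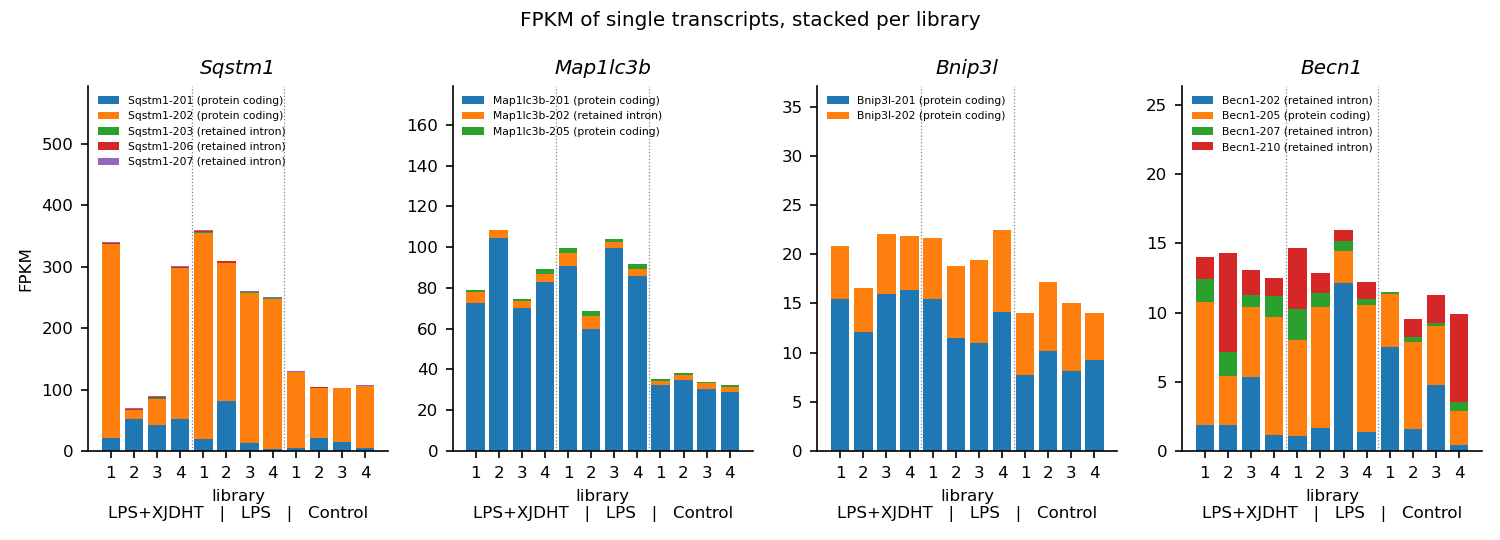
FPKM of single transcripts stacked per library for Sqstm1, Map1lc3b, Bnip3l and Becn1, with 4 libraries per group. Sqstm1-202 makes up most of the bar except in LPS+XJDHT libraries 2 and 3, where it stands at 14.5 and 43.5 FPKM, and the makeup of Becn1 changes from library to library.

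Measured against the whole ATG8 family, Map1lc3b held a larger share in every treated heart than in any Control heart. Summed over Map1lc3a, Map1lc3b, Gabarap, Gabarapl1 and Gabarapl2, the family stood at 404 ± 16.6 FPKM in LPS+XJDHT, 419.7 ± 53.7 FPKM in LPS and 371 ± 6.05 FPKM in Control (SD, n = 4 each). Map1lc3b made up 21.7% ± 3.00 of that sum in LPS+XJDHT, 21.7% ± 3.06 in LPS and 9.41% ± 0.593 in Control. Map1lc3a made up 50.4% ± 1.97 in LPS+XJDHT, 49.3% ± 2.74 in LPS and 64.0% ± 1.98 in Control. Both shares kept every treated library apart from every Control library. Gabarapl2 held 10.3%, 10.9% and 8.20% and Gabarap 6.73%, 7.08% and 4.41% in LPS+XJDHT, LPS and Control. The ratio of Map1lc3b to Map1lc3a was 0.432 ± 0.0728 in LPS+XJDHT and 0.440 ± 0.0572 in LPS, against 0.147 ± 0.0129 in Control. These shares are descriptions without a test, and Map1lc3a counts Map1lc3a-203, a processed transcript, together with its coding transcript. A share can move because any member of the sum moves, and the ATG8 genes share sequence.

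**Figure D4:**
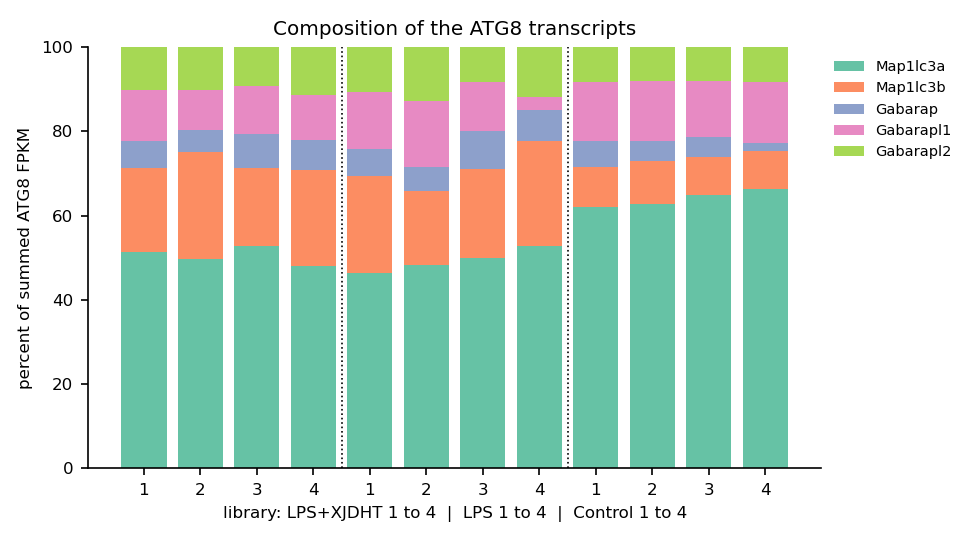
Percent of the summed FPKM of the 5 ATG8 genes (vertical axis, 0 to 100) held by each gene, 1 bar per library. Map1lc3b holds 17.7% to 25.4% in the 8 libraries of treated mice and 8.95% to 10.2% in the Control libraries, and Gabarapl1 holds 3.11% in LPS library 4.

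Other genes of the pathway were taken from 11 lists with 125 genes, of which 118 were tested. After LPS 39 of them rose, 33.1%, against 26.6% of all genes, and 10 fell, 8.47%, against 12% of all. Their median log2 fold change was 0.17, beside 0.16 for all genes. With median-ratio scaling 22 rose and 16 fell. Between LPS+XJDHT and LPS 0 of the 118 rose and 0 fell by limma, 3 were under an unadjusted p of 0.05 and limma-voom called 0. In LPS+XJDHT against Control 36 rose, 30.5%, against 28.5% of all genes, and 9 fell, 7.63%, against 10.7% of all, and with median-ratio scaling 20 rose and 16 fell.

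The remaining ATG8 genes both rose after LPS. Gabarapl2 was 45.1 ± 3.75 FPKM in the LPS group, against 30.5 ± 0.468 FPKM in Control (log2 ratio 0.55, limma adjusted p = 0.00036). Gabarap was 30.1 ± 9.72 against 16.5 ± 6.56 FPKM, with overlapping groups (0.88, limma adjusted p = 0.034, lost with median-ratio scaling). In the ULK complex, 2 of 4 genes rose and 1 fell. Atg13, the adaptor of the kinase, had a log2 fold change of 1.15 and Atg101, its partner, of 0.39, both lost with median-ratio scaling. Ulk2, the paralog of Ulk1, fell to 10.1 ± 1.31 FPKM after LPS, against 14.2 ± 0.367 FPKM in Control (-0.45, limma adjusted p = 0.0026). Of 7 genes of the class III lipid kinase complexes around beclin 1, 0 rose and 0 fell by limma, 0 were under an unadjusted p of 0.05, and limma-voom also called 0. Of 9 genes of the ATG9, ATG2 and WIPI group 2 rose, among them Vmp1, which supplies membrane at the endoplasmic reticulum (0.78, limma adjusted p = 0.0024). In the conjugation machinery that attaches ATG8 to lipid, 1 of 9 rose, the protease gene Atg4b (0.33, lost with median-ratio scaling and with limma-voom), and 1 fell, its relative Atg4d (-0.51).

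Of 9 other cargo receptors 3 rose and 1 fell. Tax1bp1, a ubiquitin-binding receptor, was 47.6 ± 3.06 FPKM in the LPS group, against 29.2 ± 1.44 FPKM in Control (log2 ratio 0.69, limma adjusted p = 6.5e-05). Tollip (0.30) and Tex264, a receptor for the endoplasmic reticulum (0.37), rose too, both lost with median-ratio scaling, and Stbd1, which tethers glycogen, fell by 0.52 on the log2 scale. In the PINK1 and parkin list 5 of 15 rose and 1 fell. Vcp, the segregase that extracts ubiquitinated outer-membrane proteins, was 140.1 ± 17.2 FPKM in LPS hearts against 83.5 ± 2.00 FPKM in Control (0.73, limma adjusted p = 0.00014). Marchf5, a ubiquitin ligase of the outer membrane, and the import receptor Tomm20 had log2 fold changes of 0.92 and 0.63. Mfn1, a mitochondrial fusion protein, fell to 40.7 ± 4.80 FPKM, against 67.0 ± 7.48 FPKM in Control (-0.71, limma adjusted p = 0.00043).

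Among 6 other mitophagy receptors and anchors 2 rose and 1 fell. Fkbp8, an LC3-binding outer-membrane protein, rose by 0.37 on the log2 scale, a call lost with median-ratio scaling. Phb2, prohibitin, stood at 47.9, 46.4, 56.0 and 34.7 FPKM after LPS and at 4.39, 39.1, 6.53 and 6.40 FPKM in Control (2.15, limma adjusted p = 0.023), so Control library 2 lay within the LPS range. Rhot2, which links mitochondria to motors, fell to 10.1 ± 2.73 FPKM, against 26.9 ± 6.65 FPKM in Control (-1.33, limma adjusted p = 0.00080).

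The later steps are fusion with the lysosome and breakdown inside it. Of 15 genes of fusion with the lysosome 5 rose (3 rose and 1 fell with median-ratio scaling). Among the 5 was Rab7, the late endosome GTPase, at 155 ± 3.27 FPKM in the LPS group, against 62.1 ± 36.1 FPKM in Control (log2 ratio 1.496, limma adjusted p = 0.0034). Vps11, of the tethering complex, and Ykt6, a SNARE protein, had log2 fold changes of 0.75 and 0.62. Of 23 genes of the lysosome and the TFEB family 12 rose and 2 fell, their median being 0.49 on the log2 scale. With median-ratio scaling 9 rose and 2 fell. The genes of the TFEB family itself passed in neither setting. The proteases Ctsl and Ctsz stood at 134 ± 24.9 and 47.6 ± 10.0 FPKM after LPS, against 68.8 ± 5.22 and 18.3 ± 3.46 FPKM in Control (0.94 and 1.32). Lamp2, which encodes a lysosomal membrane protein, had a log2 fold change of 0.61.

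Upstream of the pathway 5 of 19 genes of AMPK, mTORC1 and FoxO signalling rose and 3 fell. Mtor, the kinase that holds autophagy back, was 12.6 ± 1.45 FPKM in the LPS group, against 6.87 ± 1.94 FPKM in Control (log2 ratio 0.82, limma adjusted p = 0.0025), and its inhibitor gene Deptor also rose (0.78). Trp53inp1 rose (0.98) and Trp53inp2, which encodes an autophagy cofactor, fell to 116 ± 21.8 FPKM, against 187 ± 24.5 FPKM in Control (-0.70, limma adjusted p = 0.0027).

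**Figure D5:**
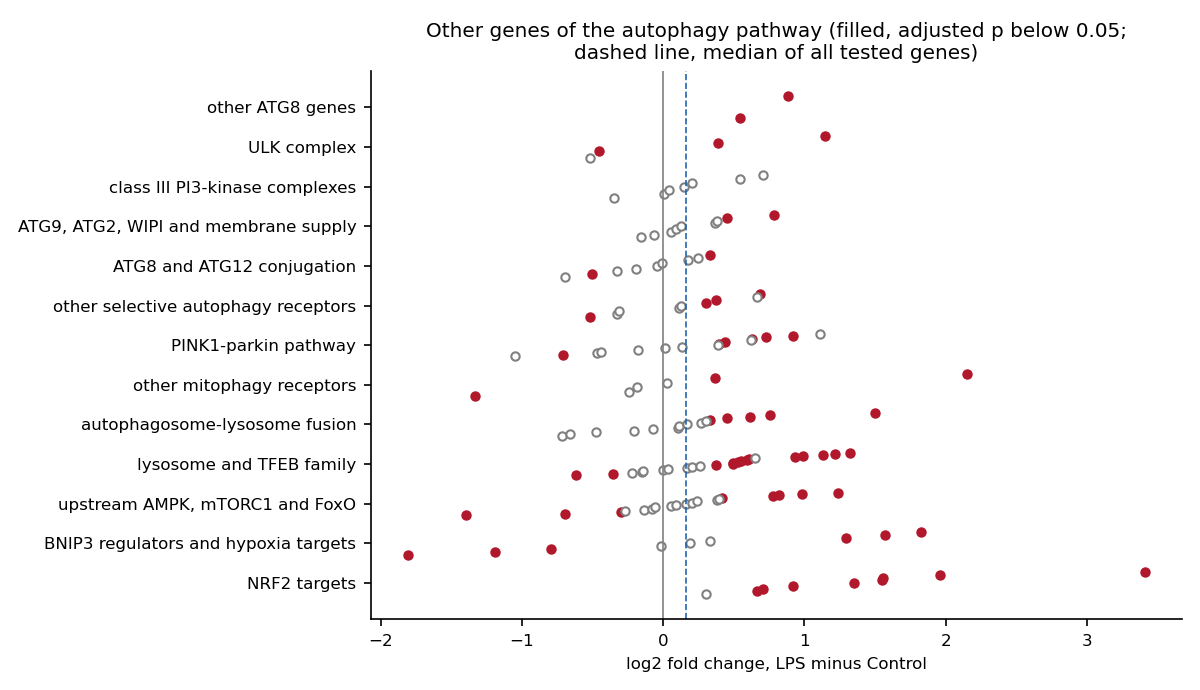
Log2 fold change of LPS over Control (horizontal axis) for each tested gene of the 13 lists; filled points passed the adjusted p threshold and the dashed line is the median of all tested genes, 0.16. NRF2 targets lie to the right of that line, and the other lists lie on both sides of 0 except the other ATG8 genes.

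Genes of the regulators tied to Bnip3 and Sqstm1 were set beside them. In the hypoxia list 3 of 9 rose and 3 fell after LPS. Hif1a, the oxygen-sensitive factor itself, was 54.7 ± 19.7 FPKM in the LPS group, against 14.1 ± 1.34 FPKM in Control (log2 ratio 1.82, limma adjusted p = 4.2e-05). Of its classical targets Adm (1.29) and Slc2a1 (1.57) rose, and Pdk1 and Ldha did not pass. Vegfa fell to 15.6 ± 4.13 FPKM, against 57.1 ± 12.2 FPKM in Control (-1.81). Egln1, the hydroxylase that marks the factor for breakdown, fell by 1.19 on the log2 scale, and its relative Egln3 also fell (-0.79). Of 9 genes of the NRF2 list 8 rose, the median of the list being 1.35 on the log2 scale, and the same count held with median-ratio scaling. Hmox1, haem oxygenase, had a log2 fold change of 3.41 and Nqo1 of 1.55. In LPS+XJDHT Hmox1 stood at 82.9, 37.8, 44.5 and 82.3 FPKM, with libraries 2 and 3 lowest as for Sqstm1. In LPS it stood at 145, 84.6, 47.3 and 81.2 FPKM. Control hearts held 5.69 to 8.33 FPKM of Hmox1, below every LPS+XJDHT library. Sqstm1 in LPS+XJDHT libraries 2 and 3, by contrast, lay below every Control library. Nqo1 stood at 74.7, 57.6, 60.3 and 62.4 FPKM in LPS+XJDHT hearts. The likeness of Sqstm1 and Hmox1, which lies only in the order of the LPS+XJDHT libraries, was noticed after the values were seen and was not tested.

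Cell markers moved with the treatment beside all of these genes. The summed level of 12 cardiomyocyte markers was 8533 to 12643 FPKM in LPS+XJDHT, 10048 to 12289 FPKM in LPS and 19755 to 22381 FPKM in Control, and 6 of 11 tested fell after LPS. The neutrophil sum, with 8 of 10 markers listed, was 76.7 to 154 FPKM in LPS+XJDHT, 80.9 to 120 FPKM in LPS and 1.49 to 2.83 FPKM in Control, and all 6 tested rose. For macrophages and monocytes, with 10 of 12 listed, it was 137 to 258 FPKM in LPS+XJDHT, 118 to 339 FPKM in LPS and 179 to 284 FPKM in Control, and 4 of 10 rose. For fibroblasts, with 8 of 8 listed, it was 698 to 1090.1 FPKM in LPS+XJDHT, 781 to 1028 FPKM in LPS and 433 to 539 FPKM in Control. The endothelial sum, with 8 of 8 listed, overlapped between groups at 176 to 212 FPKM in LPS+XJDHT, 155 to 218 FPKM in LPS and 149 to 181 FPKM in Control. The erythroid sum was 125 to 253 FPKM in LPS+XJDHT, 238 to 803 FPKM in LPS and 1275 to 1379 FPKM in Control. The small intestine sum was 0.306 to 1.71 FPKM in LPS+XJDHT, 13.6 to 20.4 FPKM in LPS and 0.539 to 1.58 FPKM in Control. All 5 small intestine markers tested rose in LPS against Control and fell in LPS+XJDHT against LPS. In the latter comparison 13 of all 11509 tested genes fell. No listed marker was at 0 in every library, and the part of these shifts in the values of the autophagy genes was not tested.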

How the data were processed

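Total RNA of 12 mouse hearts, depleted of ribosomal RNA, was sequenced, with groups taken from the labels and libraries numbered in accession order. The files deposited by the authors hold FPKM per transcript, a unit read from the values: low values times annotated length gave whole fragment numbers, to within 0.1, in at least 99.0% of those tested in each library. The submitters' processing notes list mm10 and limma and say nothing of their use. Which aligner and which quantifier were used is not given in the sources used here. Control and LPS files list 36293 transcripts and LPS+XJDHT files 35802, with 33137 in both. Transcripts without an Ensembl identifier (9371 and 9126), which held 6.45% to 8.01% of summed FPKM, and 43 Ensembl transcripts absent from GENCODE M21 were left out. No value columns were unused.

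FPKM of the 24723 annotated transcripts in both sets was summed per gene, genes reaching 1 FPKM in 4 or more libraries were kept, and log2(FPKM + 1) was fitted with limma 3.58.1 (R 4.3.3, empirical Bayes with intensity trend, 1 mean per group, two-sided, Benjamini-Hochberg). Fold changes on this scale understate the change of low genes. The fit was tested on simulated data. The remaining steps ran in Python 3.11.15 with pandas 2.3.3, NumPy 2.4.6 and, for plots, matplotlib 3.10.9. The genes and lists were chosen with earlier results of these data known. Named genes are the 10, up to 4 per pathway list with the smallest adjusted p after LPS, and 3 correlates per called gene. Slc2a1, Egln3, Pdk1 and Ldha of the hypoxia list are named in addition. Cell marker lists are given as sums. The design text gives 4 mice per group, so replicates are separate animals. The 22 alternatives were the filter, pseudocount, scaling, limma-voom on recovered fragments, quality weights, transcripts summed, compared groups alone and leaving out each library. A gene that this rule names is not reported here.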

Additional observations from a re-analysis of the deposited data

Results flagged for a closer look

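Among 246 groups of 4 libraries examined (the 10 genes, their transcripts and the named pathway genes), 13 held a library far from the other 3, about the 1 in 20 that chance gives. Of the 10 genes, Gabarapl1 was at 11.5 FPKM in LPS library 4, where the other LPS libraries held 56.7 to 61.4 FPKM, and its only summed transcript, Gabarapl1-201, had the same 11.5 FPKM. Sqstm1 was at 129 FPKM in Control library 1, where the others held 103 to 107 FPKM. Of single transcripts, Becn1-202 was at 12.1 FPKM in LPS library 3 and Becn1-210 at 7.17 FPKM in LPS+XJDHT library 2, each with at most 1.79 FPKM in the other libraries of its group. Ulk1-211 was at 15.2 FPKM in LPS library 1, where the others held 6.49 to 7.65 FPKM, and Map1lc3b-202 was at 5.30 FPKM in LPS+XJDHT library 1.

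Of the named pathway genes, Phb2 was at 39.1 FPKM in Control library 2 and at 4.39 to 6.53 FPKM in the other Control libraries. Uvrag was at 5.55 FPKM in LPS library 2, Atg4d at 3.09 FPKM in LPS library 1 and Tex264 at 10.97 FPKM in LPS+XJDHT library 4. Wipi1 was at 27.0 FPKM and Gclc at 4.92 FPKM in Control library 1.

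Transcripts that only the LPS+XJDHT files list stood outside the comparisons and were above the level that 3 fragments give. Map1lc3b-204 averaged 0.548 FPKM, Becn1-211 averaged 0.586 FPKM and Fundc1-205 averaged 0.651 FPKM in LPS+XJDHT, with 1.79 FPKM of Fundc1-205 in library 2.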

How the results depend on the processing

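Calls for Map1lc3b and Fundc1 against Control held under all 22 alternatives, and no gene of the 10 passed between LPS+XJDHT and LPS under any. With median-ratio scaling 2112 genes fell in LPS against Control, 1 of the 10 genes rose and 3 fell, and in LPS+XJDHT against Control 1967 genes rose and 2044 fell, with 1 of the 10 rising and 3 falling. The removed shift of the median gene is that scaling's own construction, and other causes were not tested. Quality weights gave 2 of the 10 falling in LPS against Control. In LPS+XJDHT against Control the number of the 10 that fell was 2 with the 5 FPKM limit, a pseudocount of 0.1, quality weights or all listed transcripts, and 3 with the compared groups alone. Between LPS+XJDHT and LPS 2 genes rose and 41 fell without a filter, 1 fell with the 5 FPKM limit, 1 rose with a pseudocount of 0.1, and 3 rose with quality weights and likewise with all listed transcripts. Leaving out each library gave 1 to 2 of the 10 falling in either comparison with Control, and 0 to 2 genes rising and 3 to 15 falling between LPS+XJDHT and LPS.

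Signs turned only for values that did not pass. With median-ratio scaling these were Bnip3 (-0.12) and Ulk1 (-0.10) in LPS against Control, Bnip3 (-0.20) and Ulk1 (-0.23) in LPS+XJDHT against Control, and Fundc1 (-0.019) between LPS+XJDHT and LPS. With protein-coding transcripts alone Ulk1 turned to -0.032 against Control and Map1lc3a to 0.059 and Becn1 to 0.00022 between LPS+XJDHT and LPS. Pink1 turned to 0.0062 with quality weights and Becn1 to 0.019 with all listed transcripts. With a pseudocount of 0.1 Map1lc3b-205 turned to -0.32 in LPS+XJDHT against Control and Becn1-202 to 0.034 in LPS against Control. Leaving out each library spanned, in LPS against Control, -0.59 to 0.18 for Gabarapl1, -0.056 to 0.22 for Bnip3 and -0.14 to 0.22 for Ulk1, and -0.076 to 0.084 for Ulk1 in LPS+XJDHT against Control. Between LPS+XJDHT and LPS it spanned -0.061 to 0.067 for Map1lc3a, -0.17 to 0.027 for Map1lc3b, -0.42 to 0.35 for Gabarapl1, -0.18 to 0.096 for Bnip3, -0.064 to 0.068 for Bnip3l, -0.035 to 0.024 for Pink1, -0.22 to 0.14 for Ulk1, -0.097 to 0.025 for Becn1 and -0.048 to 0.12 for Fundc1. No paired analysis was possible because the animal numbers are not shared between groups. With 4 libraries per group the intervals set what could be seen, and depth, at 906 fragments or more per gene and library, limited Fundc1 most.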

Other observations

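Across the 12 libraries the 10 genes formed 45 pairs, whose correlations mix the difference between groups with the spread inside them. Over all libraries Map1lc3b and Becn1 had a Pearson r of 0.85 and Map1lc3b and Fundc1 of -0.81, and after subtraction of group means these were 0.39 and 0.12. Map1lc3a and Pink1, both abundant, had r of 0.85 over all libraries and 0.71 inside groups. Bnip3l and Fundc1 had -0.48 over all libraries and 0.86 inside groups. All points share the 12 libraries and their scaling.

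The tested genes whose log2 values followed the called genes most closely over the 12 libraries were, for Map1lc3b, Sars, a seryl-tRNA synthetase (r = 0.97, and 0.67 inside groups), Fpr1, a formyl peptide receptor (0.97 and 0.72), and Arg1, arginase (0.97 and 0.59). For Sqstm1 they were Trim27, a ubiquitin ligase of the TRIM family (0.94 and 0.95), Srgap1 (0.87 and 0.85) and Ube4b (0.86 and 0.77). For Bnip3l they were Hbp1 (0.98 and 0.94), Rab31 (0.96 and 0.87) and Xrn2 (0.95 and 0.85). For Becn1 they were Acadl, of fatty acid oxidation (0.91 and 0.71), Nudt16 (0.90 and 0.69) and Srp68 (0.90 and 0.66). For Fundc1 they were Mrpl42, a mitochondrial ribosomal protein (0.95 and 0.83), Man1c1 (0.94 and 0.76) and Stmn1 (0.94 and 0.75). The second value of each pair is the r inside groups. The genes named had the highest positive r of the 11509 tested once predicted genes, clones and mitochondrially encoded genes were left out. They are given as a description.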
